A study of Mus musculus with 12 samples.

Results

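Cultures of adult mouse dorsal root ganglion (DRG) neurons heterozygous for the GAR domain of nucleolin (GAR+/-, het below) were compared between their neurites, which had grown through a porous membrane, and the soma left above it. The comparison held all het samples of the series, 3 neurite and 3 soma libraries or 6 of 12 samples, chosen by their labelled genotype and compartment. It rested on the 31420 named transcripts present in the count tables of both compartments, which were summed to 16617 genes. The other 6 samples were the same compartments of GAR+/+ (WT) cultures, used here to share the estimate of spread and to set the WT change beside the het change.

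All mice had the C57B6 background. Each culture held the dissociated ganglia of 1 adult mouse, recovered through a Percoll cushion with no sorting step named, and grew for 3 days in serum-containing medium on inserts with 1 µm pores coated with poly-lysine and laminin. The stranded libraries were made from RNA after removal of ribosomal RNA. The labels give the genotype alone, without the change made to the allele, the sex of the mice or their exact age.

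Nucleolin binds RNA in the nucleolus, where it is abundant, and in the cytoplasm, and in sensory axons it binds mRNAs that are carried away from the cell body, among them that of importin beta 1 (Kpnb1) and that of Mtor. Its GAR domain is a stretch rich in glycine and arginine that takes part in binding RNA and other proteins. In many cells some mRNAs collect in protrusions rather than around the nucleus, and Rab13 and Net1 are known examples whose 3′ untranslated region (UTR) carries GA-rich sequence. DRG cultures also hold satellite glia, Schwann cells, fibroblasts and macrophages, and fine processes of such cells can enter pores as well.

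The het soma libraries held 32434916, 25917161 and 22163752 counts and those of the neurites 18793693, 26797243 and 23339223, within the range of all 12 libraries (14965973 to 32434916). Levels are given as CPM, counts on a common library size after TMM scaling, for libraries 1, 2 and 3 in turn. Repeats are independent per the labels, and the p-values measure the spread between the libraries of these cultures. Neuronal markers were present in both compartments: Tubb3, the neuronal beta-tubulin, stood at 4811, 5189 and 4795 CPM in soma and at 3806, 4748 and 4504 CPM in neurites. Markers of other cells were also present in both. The collagen gene Col1a1 ran from 92.4 to 213 CPM in soma and from 96.1 to 277 CPM in neurites. A lower level in neurites cannot be told apart here between less neurite or cell material of a type and less RNA per cell.

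The het comparison asked which RNAs differ between neurites and soma in GAR+/- cultures. Cdc42bpg, Rab13, Tns3 and Akap12, all of them RNAs known from cell protrusions, the intermediate filaments Nes and Vim, the D cyclins Ccnd1 and Ccnd2 and some ribosomal proteins rose in neurites. Fewer RNAs fell, among them those of the receptors Ngfr and Chrna7 and of the potassium channel Kcnh2. Of 15990 genes tested, 102 (0.638%) passed an adjusted p of 0.05 in edgeR's quasi-likelihood test, 87 (0.544%) higher and 15 (0.0938%) lower in neurites. Fold changes were small, with a median of 1.61-fold and a range of 1.35-fold to 4.28-fold among the higher genes, of which 18 reached 2-fold. The top of that range was Cdc14a, whose only counted transcript averaged 0.164 CPM in soma and 0.760 CPM in neurites. Its fold thus rests on few counts. Among the lower genes the median was 1.64-fold and the range 1.43-fold to 2.23-fold, and 2 reached 2-fold. The log2 fold change over all tested genes had a median of -0.01, and 49.2% of genes lay above 0.

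All 102 genes had neurite levels that did not overlap the soma levels, a property that 11.7% of all tested genes had in the higher direction and 10.6% in the lower. Their adjusted p-values lay close to the threshold, between 0.0202 and 0.0488, and the count depended on single libraries. It was 0 without soma library 1, 0 without soma library 2, 1 without soma library 3 and 0 without neurite library 1, where 1976, 1525, 1622 and 1663 genes had an unadjusted p under 0.05, against 2301 in the full fit (1221 or 7.64% of all genes higher and 1080 or 6.75% lower). It was 24 without neurite library 3 and 191 (89 higher and 102 lower) without neurite library 2. In each of these 6 fits all 102 genes kept their direction, which groups without overlap all but ensure. None of them passed in all 6, which the fits with 0 calls fixed beforehand. DESeq2 called 488 genes (3.05%) on the same counts, 347 (2.17%) higher and 141 (0.882%) lower, of which 100 were among the 102. For the lists below, counts at an unadjusted p are to be set against 7.64% higher and 6.75% lower. Those of DESeq2 are to be set against 2.17% and 0.882%.

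**Figure D1:**
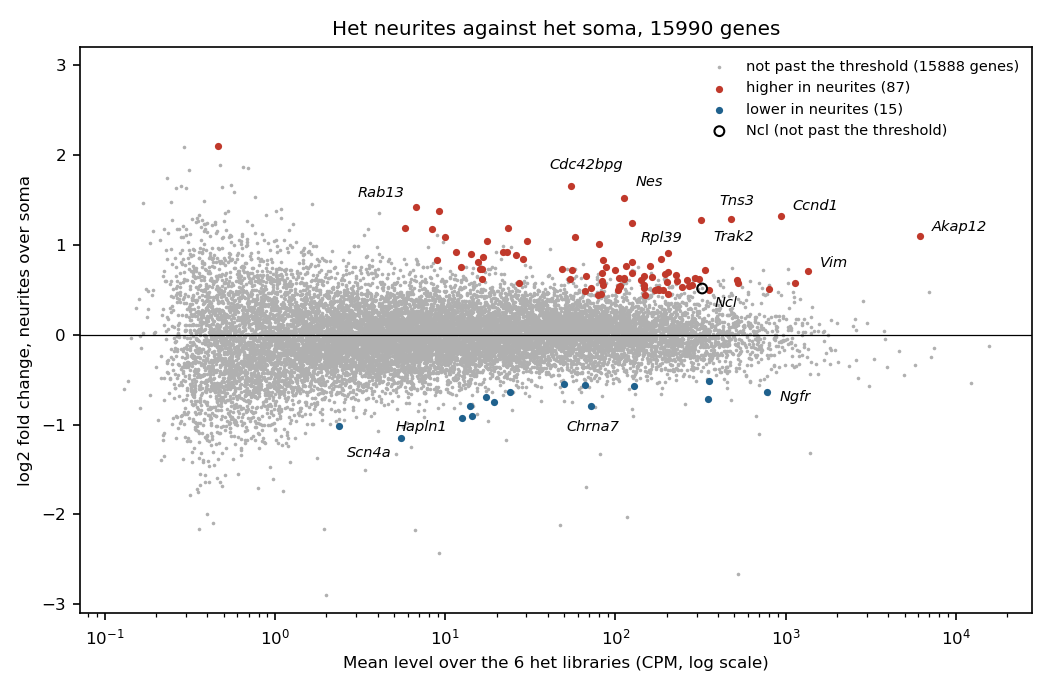
Each point is 1 of the 15990 genes tested, with its mean level over the 6 het libraries (CPM, log scale) across and its log2 fold change of neurites over soma upwards. The 87 genes that rose (red) and the 15 that fell (blue) lie at the edges of the cloud over a wide range of levels, and Ncl (circle) lies among the higher genes without passing.

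Several RNAs known from cell protrusions rose by 2-fold or more. Cdc42bpg, a kinase that acts below the small GTPase Cdc42, stood at 21.3, 28.9 and 28.5 CPM in soma and at 80.6, 100 and 67.0 CPM in neurites. The lowest neurite library lay well above the highest soma library, and the fold change was 3.15 (log2 1.66 ± 0.30 SE, adjusted p = 0.0468). Rab13, a small GTPase of membrane traffic, stood at 4.01, 3.46 and 3.44 CPM in soma and at 11.7, 9.32 and 8.37 CPM in neurites. The soma libraries of Rab13 lay close together, and it rose 2.68-fold (1.42 ± 0.21, adjusted p = 0.0202). Tns3, a tensin that links integrins to actin, stood at 309, 230 and 300 CPM in soma and at 787, 641 and 614 CPM in neurites. It rose 2.43-fold (1.28 ± 0.19, adjusted p = 0.0215), with neurite library 1 the highest.

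Akap12, a scaffold that anchors protein kinase A at membranes, stood at 3644, 3780 and 4247 CPM in soma and at 8404, 9525 and 7122 CPM in neurites, a 2.15-fold rise (1.10 ± 0.19, adjusted p = 0.0236). Kank2, an adaptor at the rim of focal adhesions, rose 1.70-fold from 85.2, 76.7 and 93.1 CPM to 170, 133 and 130 CPM (0.77 ± 0.12, adjusted p = 0.0202). Sh3pxd2a, the scaffold of invasive protrusions known as Tks5, rose 2.28-fold from 12.9, 14.2 and 16.0 CPM to 31.1, 38.5 and 28.4 CPM (adjusted p = 0.0484). In all 3 the groups of libraries were apart.

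Cdc42bpg, Rab13, Tns3, Akap12, Kank2 and Sh3pxd2a belong to a list of 34 RNAs known from protrusions of migrating cells, of which 33 were tested. The list was drawn up with earlier results of these data known, so its direction is not independent evidence. Of the 33, 10 rose and 0 fell in edgeR, against 0.544% and 0.0938% of all genes, and 0 were lower at an unadjusted p under 0.05 or in DESeq2. A negative log2 fold change was found for 6 members, of which Eps8, an actin-capping protein under 1 CPM in every library, had the lowest at -0.60. The median log2 fold change of the list was 0.51 in het and 0.48 in WT. The other members that rose were Trak2, Kif1c, Vim and Ddr2. By function, 1 of 53 tested actin regulators (Cdc42bpg) and 3 of 49 genes of integrins and focal adhesion (Tns3, Kank2 and Sh3pxd2a) rose in edgeR. DESeq2 called 5 actin regulators higher and 1 lower, and 5 genes of integrins and focal adhesion higher and 0 lower. Net1, an exchange factor for RhoA, stood at 3.92, 3.46 and 3.12 CPM in soma and 6.05, 4.41 and 5.20 CPM in neurites and did not pass (log2 fold change 0.57, adjusted p = 0.258). Actb, the beta-actin mRNA known from axonal transport, had 1385, 1205 and 1228 CPM in soma and 1816, 1326 and 1596 CPM in neurites, and its groups overlapped (0.31, adjusted p = 0.361).

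The list's summed level was 11810, 11580 and 12190 CPM in soma and 20120, 20130 and 17810 CPM in neurites, 1.63 times the soma mean. Akap12 alone made up a large part of this sum and of its rise, so the ratio is not that of a typical member. The median log2 fold change of the members was 0.51. Markers of other cells were summed in the same libraries. Satellite glia genes reached 5055 to 5279 CPM in soma and 5234 to 6585 CPM in neurites, Schwann cell genes 3863 to 4076 CPM and 3096 to 3895 CPM, and fibroblast genes 7450 to 9599 CPM and 6337 to 9320 CPM. Each of these 3 sums overlapped between compartments. Sums follow their highly counted members, and those of satellite glia and Schwann cells include Ngfr, which fell. By gene, 23 of 30 satellite glia genes, 21 of 29 Schwann cell genes and 22 of 36 fibroblast genes had a positive log2 fold change, with medians of 0.35, 0.22 and 0.08, against 49.2% and -0.01 over all genes. Between the libraries numbered 3, the median log2 ratio of neurites over soma was -0.10 for satellite glia, 0.08 for Schwann cell and -0.47 for fibroblast genes. It was 0.38 for the protrusion list. For numbers 1 and 2 all of these medians were positive. Equal numbers were not taken as pairs, so these ratios set single libraries side by side and are not changes within a culture. Vim belongs to both the satellite glia and the protrusion list. The part of these cells in the rise of the protrusion RNAs was not tested.

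The letters GAGAAG, the core of the GA-rich element described in protrusion RNAs, were looked for in the 3′ UTR of each gene's most counted transcript, on the sense strand only. The windows below show them in capitals in 5 genes of the list and in 2 genes that fell, so that the flanks can be compared (GENCODE M21, GRCm38, 5′ to 3′).
Rab13: cagaagggatttGAGAAGaggaaaggaaga
Cdc42bpg: agtgagagagggGAGAAGgcggcgacggag
Tns3: ggagaggaaaatGAGAAGatggaatcaaaa
Trak2: tcagactgccagGAGAAGatgttaGAGAAG
Net1: aagggaagggaaGAGAAGAGAAGagtagct
Kcnip3: caatcctgacagGAGAAGcctctatgagaa
Hapln1: gacaacctttttGAGAAGtatgtcattgct
The windows lie at chr3:90225775-90225804 (plus strand), chr19:6325056-6325085 (plus), chr11:8433804-8433833 (minus), chr1:58900817-58900846 (minus), chr13:3883031-3883060 (minus), chr2:127458259-127458288 (minus) and chr13:89611191-89611220 (plus). In the windows of Rab13, Cdc42bpg and Tns3, 26 of 30 bases are G or A, in Net1 27 and in Trak2 21, against 18 in Kcnip3 and 14 in Hapln1. Windows not printed had 23 such bases in Sh3pxd2a, 17 in Ddr2 and 16 in Akap12, which rose, and 21 in Entpd3, which fell, so the counts of the 2 directions overlapped. Each gene's window is the one with the most G and A around a match, so these counts describe the windows and were not tested. Genes without a match have no window. Of the 10 list members that rose, 7 held the letters, while Kank2, Kif1c and Vim did not. In the whole list 17 of 32 members with a 3′ UTR held them.

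Of the 64 genes that rose and have an annotated 3′ UTR, 31 (48.4%) held the letters at least once, as did 6 of the 15 that fell (40%) and 4782 of all 11785 tested genes with a 3′ UTR (40.6%). Longer UTRs hold any short motif more often, and the median 3′ UTR was 1430 bases among the genes that rose, 532 among those that fell and 1134 overall. Per kilobase the letters occurred 0.70 times in the genes that rose, 0.62 in those that fell and 0.44 over all genes. Emp2 alone held 14 of the 74 matches in the genes that rose, and those that fell held 9 matches in all. In the protrusion list the rate was 0.48, and it was 0.49 in its 10 members that rose. The letters were thus present in both directions, and a match is not shown to be a working site.

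Nes, the intermediate filament of progenitors and glia, stood at 53.4, 49.0 and 71.1 CPM in soma and at 184, 183 and 130 CPM in neurites. It rose 2.86-fold (log2 1.52 ± 0.28 SE, adjusted p = 0.0487), and without the low-count filter its adjusted p was 0.0501. Vim, the intermediate filament vimentin, whose mRNA is also known in axons, rose 1.63-fold from 981, 1007 and 1087 CPM to 1960, 1584 and 1476 CPM (0.71 ± 0.13, adjusted p = 0.0309). Both are expressed in glia and fibroblasts as well as in regrowing neurons.

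Ccnd1, the cell cycle regulator cyclin D1, stood at 591, 507 and 526 CPM in soma and at 1447, 1378 and 1227 CPM in neurites. The groups were far apart, and Ccnd1 rose 2.50-fold (1.32 ± 0.19, adjusted p = 0.0202). Ccnd2, its relative cyclin D2, rose 2.37-fold from 74.8, 63.6 and 83.8 CPM to 204, 165 and 158 CPM (1.24 ± 0.16, adjusted p = 0.0202). Of 19 tested genes of D cyclins, their kinases and inhibitors, these 2 rose and 0 fell in edgeR (0.544% and 0.0938% of all genes). At an unadjusted p under 0.05, 4 were higher and 0 lower, and DESeq2 called 3 higher and 0 lower. Cdk6, a kinase partner of the D cyclins, had 14.3, 14.1 and 12.8 CPM in soma and 27.8, 20.3 and 20.6 CPM in neurites (0.73, adjusted p = 0.0585), and Cdkn1b, the inhibitor p27, did not pass (0.07, adjusted p = 0.799).

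Genes of dividing cells were measured beside them. None of the 44 tested proliferation genes passed in edgeR, where 5 were higher at an unadjusted p under 0.05, and DESeq2 called 1. Of all genes, 7.64% were higher at that p and DESeq2 called 2.17% higher. The median log2 fold change of the 44 was 0.38, against -0.01 over all genes. Mki67, the Ki-67 proliferation marker, had 132, 104 and 152 CPM in soma and 257, 142 and 128 CPM in neurites, which overlapped (0.44, adjusted p = 0.563). The list's summed level was 1572, 1253 and 1565 CPM in soma and 2469, 1513 and 1765 CPM in neurites, with neurite library 1 far above the others. The part of dividing cells in the levels of Ccnd1, Ccnd2 and Nes was not tested.

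**Figure D2:**
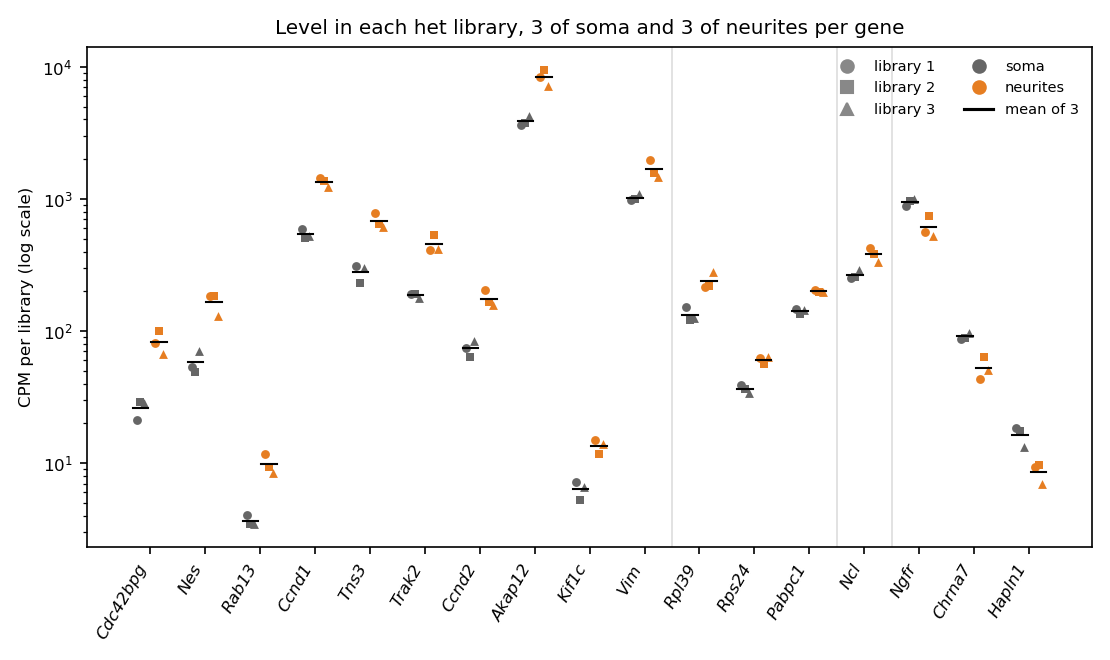
Level of 17 named genes in each of the 3 soma (grey) and 3 neurite (orange) libraries of the het cultures, on a log scale of CPM, with the mean of each group as a bar and the library number as the marker's shape. From Cdc42bpg to Pabpc1 every neurite library lies above every soma library, for Ncl too, and from Ngfr to Hapln1 every one lies below.

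Few motors and vesicle proteins passed. Of 57 tested motors and adaptors of axonal transport, 2 rose and 0 fell in edgeR (0.544% and 0.0938% of all genes), with a median log2 fold change of -0.03. At an unadjusted p under 0.05, 6 were higher and 2 lower (7.64% and 6.75% of all genes). DESeq2 called 4 higher and 0 lower (2.17% and 0.882% of all genes). Trak2, which links mitochondria to kinesin, stood at 190, 191 and 179 CPM in soma and at 408, 533 and 417 CPM in neurites, a 2.42-fold rise (1.27 ± 0.24 SE, adjusted p = 0.0468). Kif1c, a kinesin that carries protrusion RNAs, rose 2.13-fold from 7.24, 5.28 and 6.56 CPM to 15.1, 11.7 and 13.9 CPM (1.09 ± 0.21, adjusted p = 0.0406). Kif5b, the ubiquitous heavy chain of kinesin-1, had 601, 583 and 613 CPM in soma and 796, 899 and 882 CPM in neurites and did not pass (0.52, adjusted p = 0.108). The dynein heavy chain Dync1h1 ran from 5667 to 7430 CPM in soma and from 3743 to 6202 CPM in neurites (-0.34, adjusted p = 0.394).

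Sytl2, the gene of a Rab27 effector of vesicle docking, rose 2.59-fold from 4.71, 5.24 and 5.41 CPM to 13.2, 16.6 and 9.86 CPM (1.37 ± 0.26, adjusted p = 0.0379). In each het library 100% of its counts lay on Sytl2-201, annotated as a processed transcript without a coding sequence. The rise is thus not shown for an mRNA of the protein. Sytl2 was the only 1 of 53 tested genes of synaptic and dense-core vesicles to pass in edgeR (0.638% of all genes), and the median of that list was -0.28. In that list 1 gene was higher and 15 lower at an unadjusted p under 0.05, and DESeq2 called 1 higher and 2 lower. Among the genes with the highest folds, Arhgef26, an exchange factor for RhoG, rose 2.13-fold (adjusted p = 0.0215), Mtss1l, a membrane-bending actin regulator, 2.06-fold (0.0405) and Daam2, a formin, 2.01-fold (0.0257). Trim12c, of a family of antiviral ubiquitin ligases, rose 2.06-fold (0.0202), and Anp32b, a histone chaperone, 1.89-fold (0.0215). For each of these 5, all neurite libraries lay above all soma libraries.

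Some mRNAs of ribosomal proteins rose, each by less than 2-fold. Of 82 tested genes of cytosolic ribosomal proteins, 13 rose and 0 fell in edgeR (0.544% and 0.0938% of all genes), and the median log2 fold change was 0.23. At an unadjusted p under 0.05, 33 were higher and 0 lower, and DESeq2 called 19 higher and 0 lower. Rpl39, of the large subunit, stood at 152, 122 and 125 CPM in soma and at 215, 220 and 281 CPM in neurites. The groups were apart, and Rpl39 rose 1.79-fold (0.84 ± 0.13 SE, adjusted p = 0.0205). Rps24, of the small subunit, rose 1.66-fold from 39.3, 36.4 and 33.9 CPM to 62.8, 56.0 and 63.6 CPM (0.73 ± 0.12, adjusted p = 0.0215). Rps3a1 (log2 0.68 ± 0.12, adjusted p = 0.0267) and Rps26 (0.59 ± 0.10, adjusted p = 0.0236), both of the small subunit, rose as well. The remaining 69 members did not pass and their log2 fold changes reached down to -0.44.

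The rise was unequal between neurite libraries. The list's summed level was 6756, 6232 and 5955 CPM in soma and 8164, 8082 and 9741 CPM in neurites, so that neurite library 3 was the highest. Of the 87 genes that rose, 25 have names that begin with Rpl or Rps, pseudogenes included, and all 25 were highest in neurite library 3. The other 62 were highest in neurite library 1 for 36 genes, in library 2 for 12 and in library 3 for 14. Reads of a ribosomal protein gene and of its processed copies can be shared, and 8 of 45 tested pseudogenes named after such genes also rose, so the level of single members is uncertain. Without neurite library 3 the comparison called 24 genes in all.

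Other parts of the translation machinery were tested as well. Of 55 tested translation factors, 2 rose and 0 fell in edgeR (0.544% and 0.0938% of all genes). At an unadjusted p under 0.05, 9 were higher and 0 lower, and DESeq2 called 7 higher and 0 lower. Eif5b, which joins the ribosomal subunits, rose 1.44-fold from 116, 115 and 129 CPM to 183, 178 and 157 CPM (adjusted p = 0.0267). Pabpc1, the cytoplasmic poly(A)-binding protein, rose 1.41-fold from 146, 135 and 145 CPM to 205, 198 and 197 CPM (adjusted p = 0.0468). None of 77 mitochondrial ribosomal proteins passed in edgeR (median 0.13), with 12 higher and 1 lower at an unadjusted p under 0.05 and 2 higher in DESeq2. Of 83 nuclear genes of oxidative phosphorylation only Ndufb9, of complex I, did. It rose 1.37-fold (adjusted p = 0.0488), with an adjusted p of 0.0869 in a fit of the 6 het libraries alone. DESeq2 called 4 of the 83 higher and 0 lower, and 14 were higher and 0 lower at an unadjusted p under 0.05. None of 38 proteasome subunits passed in edgeR (median 0.12), with 4 higher at an unadjusted p under 0.05 (7.64% of all genes) and 0 in DESeq2.

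The mRNA of nucleolin itself was called by 1 tool and not by the other. Ncl, whose gene lies at chr1:86344719-86359400 (GRCm38, minus strand), stood at 251, 258 and 290 CPM in het soma and at 426, 382 and 332 CPM in het neurites. All neurite libraries lay above all soma libraries, by 1.43-fold, but the change did not pass in edgeR (log2 0.51 ± 0.13 SE, adjusted p = 0.0887). It passed in DESeq2 (adjusted p = 0.0107), and over all alternatives its adjusted p ran from 0.0107 to 0.347. In WT the log2 fold change was 0.79 ± 0.13, and the het change minus the WT change was -0.28 ± 0.18 (adjusted p = 1.00). The counts are of whole transcripts, so they do not show from which allele they came.

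The mRNAs that nucleolin is known to bind in axons did not pass. Kpnb1 had 887, 830 and 888 CPM in soma and 1058, 903 and 947 CPM in neurites (0.16 ± 0.11, adjusted p = 0.562). Mtor had 280, 306 and 310 CPM in soma and 249, 277 and 229 CPM in neurites (-0.25 ± 0.10, adjusted p = 0.293). For Kpnb1 the neurite libraries lay above those of the soma and for Mtor below, by less than these data could call. None of 57 tested nucleolar and ribosome biogenesis genes passed in edgeR (median 0.18), with 12 higher at an unadjusted p under 0.05 and 2 in DESeq2. None of 45 nuclear transport genes (median 0.06) or of 42 genes of mTOR signalling (median -0.04) passed in either tool, with 2 higher and 3 lower in turn at an unadjusted p under 0.05. Of all genes, 7.64% were higher and 6.75% lower at that p. Ddx21, a nucleolar RNA helicase, came next to Ncl in the first of these lists, at 0.45 on the log2 scale (adjusted p = 0.120).

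Among the 15 genes that fell was Ngfr, the neurotrophin co-receptor p75, which Schwann cells and satellite glia also express. It fell 1.56-fold from 885, 972 and 1005 CPM to 565, 746 and 521 CPM (-0.64 ± 0.14, adjusted p = 0.0484). The groups were apart, and in the 6 het libraries alone its adjusted p was 0.0634. Of 18 tested receptors and ligands of neurotrophins and GDNF, 2 fell, Ngfr among them, and 0 rose in edgeR (0.0938% and 0.544% of all genes). At an unadjusted p under 0.05, 2 were lower and 1 higher, and DESeq2 called 2 lower and 0 higher. Ret, the signalling receptor of the GDNF family, had 216, 261 and 257 CPM in soma and 214, 263 and 156 CPM in neurites, which overlapped (-0.21, adjusted p = 0.630).

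Few channels and receptors of excitability passed. Chrna7, the alpha7 subunit of the nicotinic acetylcholine receptor, stood at 86.9, 89.3 and 97.3 CPM in soma and at 43.4, 63.5 and 50.3 CPM in neurites, 1.74-fold lower (-0.80 ± 0.15 SE, adjusted p = 0.0343). Kcnh2, the potassium channel known as hERG, fell 1.61-fold (adjusted p = 0.0400) and Kcnip3, a calcium sensor that binds Kv4 channels, 1.55-fold (0.0257). Of 56 tested sodium and potassium channel genes, 3 fell and 0 rose in edgeR, against 0.0938% and 0.544% of all genes. At an unadjusted p under 0.05, 31 were lower and 0 higher, DESeq2 called 11 lower and 0 higher, and 53 of the 56 had a negative log2 fold change, with a median of -0.42. Scn4a, a sodium channel best known from muscle that is not in that list, fell 2.23-fold from 7.57, 7.65 and 7.66 CPM to 2.39, 4.37 and 3.42 CPM (adjusted p = 0.0267), and it was singled out after its values were seen.

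Nociceptor genes gave 3 of 36 lower (0.0938% of all genes), Kcnip3 and Chrna7 among them, with a median of -0.34. At an unadjusted p under 0.05, 12 were lower and 1 higher, and DESeq2 called 4 lower. Of 37 ligand-gated receptors only Chrna7 passed in edgeR (median -0.44), with 19 lower at an unadjusted p under 0.05 and 6 in DESeq2. None of 21 genes of large-diameter neurons passed in edgeR (median -0.37), with 9 lower at an unadjusted p under 0.05 and 3 in DESeq2. Asic1, a proton-gated channel, was nearest to the threshold with 35.4, 39.1 and 40.6 CPM in soma and 21.6, 28.4 and 21.6 CPM in neurites (adjusted p = 0.0908). None of 36 pan-neuronal genes passed in edgeR or DESeq2 (median -0.22), and 9 were lower at an unadjusted p under 0.05. Thy1, a surface protein of neurons, had 738, 775 and 672 CPM in soma and 476, 606 and 433 CPM in neurites (adjusted p = 0.156), and Nefl, the light neurofilament, had 5688, 6616 and 4823 CPM and 3508, 4956 and 4062 CPM, which overlapped (adjusted p = 0.226). The medians of these neuronal lists were negative. How many single members passed differed between the tools.

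In 12 of the 15 genes that fell, the highest of the 3 neurite levels was that of library 2. Library 2 was also the highest of the 3 in the summed channel list, with 4958, 5341 and 5307 CPM in soma and 3751, 4611 and 3263 CPM in neurites. The pan-neuronal sum was 44600, 49590 and 44740 CPM in soma and 39090, 48100 and 37630 CPM in neurites. Without neurite library 2, 102 genes were lower instead of 15. What set library 2 apart was not tested.

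Other genes that fell had other roles. Hapln1, a link protein of the extracellular matrix around neurons, fell 1.90-fold from 18.3, 17.6 and 13.2 CPM to 9.34, 9.63 and 6.89 CPM (adjusted p = 0.0381). Hgf, hepatocyte growth factor, fell 1.74-fold (0.0384), Prrt3, a membrane protein, 1.88-fold (0.0215), Igsf21, a synaptic adhesion protein, 1.68-fold (0.0468) and Entpd3, an ectonucleotidase of sensory neurons, 1.47-fold (0.0468). In the 6 het libraries alone the adjusted p-values of Hgf and Entpd3 were 0.0520 and 0.0641.

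**Figure D3:**
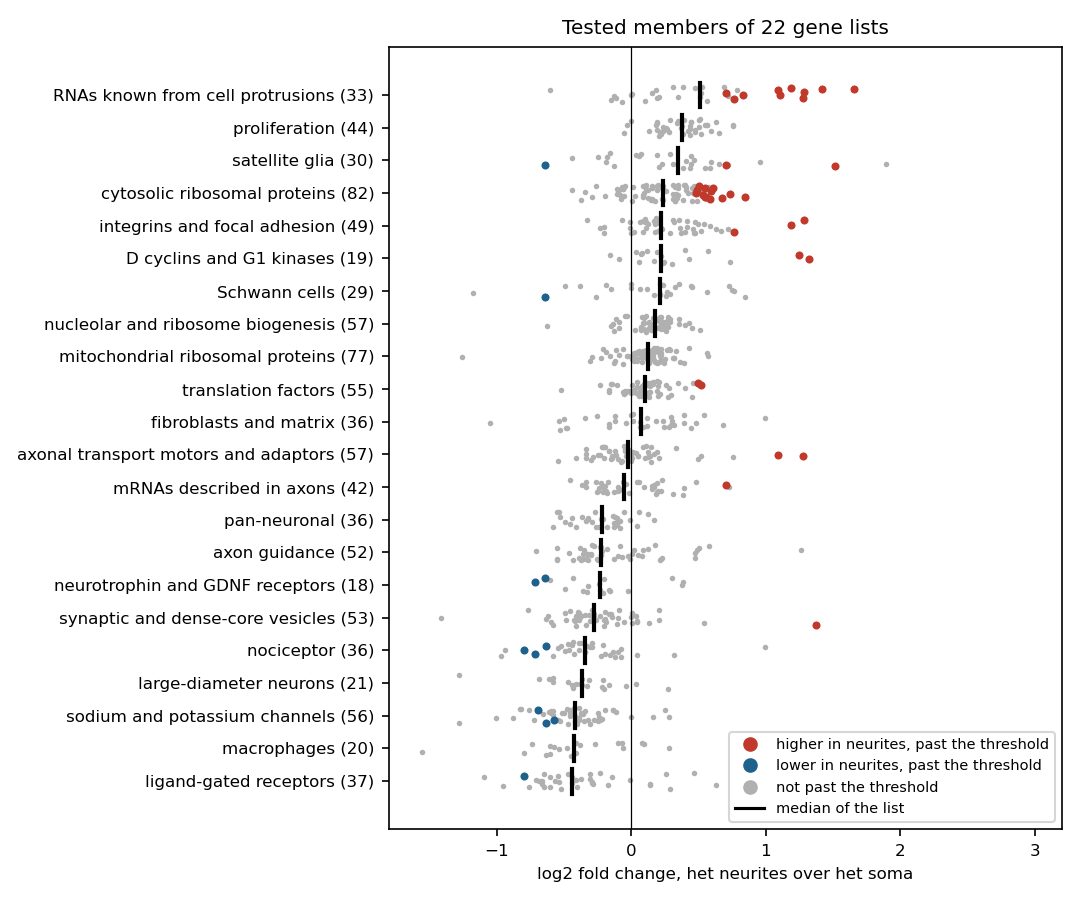
Log2 fold change of het neurites over het soma for each tested member of 22 gene lists, with the number of tested members in brackets and the list's median as a black bar. Coloured points passed the threshold: 10 of the protrusion RNAs and 13 of the ribosomal protein genes are red, while 3 sodium and potassium channel genes and 3 nociceptor genes are blue.

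Markers of non-neuronal cells were measured for every list. Of 30 tested satellite glia genes 2 rose (Vim and Nes) and 1 fell (Ngfr), against 0.544% and 0.0938% of all genes. At an unadjusted p under 0.05, 10 were higher and 2 lower, and DESeq2 called 5 higher and 2 lower. Kcnj10, the potassium channel that defines satellite glia, had 27.2, 30.3 and 27.2 CPM in soma and 73.4, 59.3 and 31.5 CPM in neurites (0.95 ± 0.34 SE, adjusted p = 0.240), with neurite library 3 close to the soma level. Of 29 Schwann cell genes only Ngfr passed in edgeR, as lower, with 5 higher and 2 lower at an unadjusted p under 0.05 and 2 higher and 1 lower in DESeq2. Sox10, the transcription factor of both kinds of glia, had 175, 184 and 199 CPM in soma and 274, 219 and 223 CPM in neurites (0.36, adjusted p = 0.154).

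None of 36 fibroblast genes (median 0.08), of 26 genes of endothelium and mural cells (0.17) or of 20 macrophage genes (-0.43) passed in edgeR. At an unadjusted p under 0.05 there were 3 higher and 3 lower fibroblast genes, 3 and 2 of endothelium and mural cells and 0 and 3 of macrophages, and DESeq2 called 1 higher and 1 lower fibroblast gene and 0 of the others. Over all genes the shares were 7.64% higher and 6.75% lower at that p, and 2.17% and 0.882% in DESeq2. C1qa, a complement gene of macrophages, had 14.1, 12.9 and 26.0 CPM in soma and 7.70, 12.7 and 16.0 CPM in neurites, which overlapped. Csf1r and Pecam1 were removed by the low-count filter, and Aif1 was not among the named transcripts of both tables. Of 27 interferon response genes only Parp14, an antiviral ADP-ribosyltransferase, rose in edgeR (0.544% of all genes), 1.55-fold with an adjusted p of 0.0484. When scaled by library totals alone, its adjusted p was 0.0508. DESeq2 called 2 of the 27 higher and 0 lower. The satellite glia sum was higher in neurite libraries 1 and 2 (6585 and 6145 CPM) than in library 3 (5234 CPM), and its part in the changes of Nes, Vim and Akap12 was not tested.

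RNAs known to stay in the nucleus were measured in both fractions. None of 10 tested nuclear long RNAs passed in edgeR, with 2 lower at an unadjusted p under 0.05 and 1 in DESeq2. Their sum was 20130, 23810 and 26320 CPM in soma and 17980, 18550 and 17210 CPM in neurites, 0.765 of the soma mean, and the compartments did not overlap. Rian, an imprinted nuclear RNA, had 364, 352 and 327 CPM in soma and 246, 269 and 215 CPM in neurites (adjusted p = 0.108). The 46 tested small nucleolar RNAs had a median log2 fold change of -0.54. None passed in edgeR, 10 were lower at an unadjusted p under 0.05 and 1 in DESeq2. Their sum ran from 327 to 660 CPM in soma and from 176 to 296 CPM in neurites, 0.523 of the soma mean. Nuclear RNAs were thus present in the neurite libraries too. The share of nuclear or cell body material in these libraries was not tested, so a higher level in them is not shown to lie in neurites alone.

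**Figure D4:**
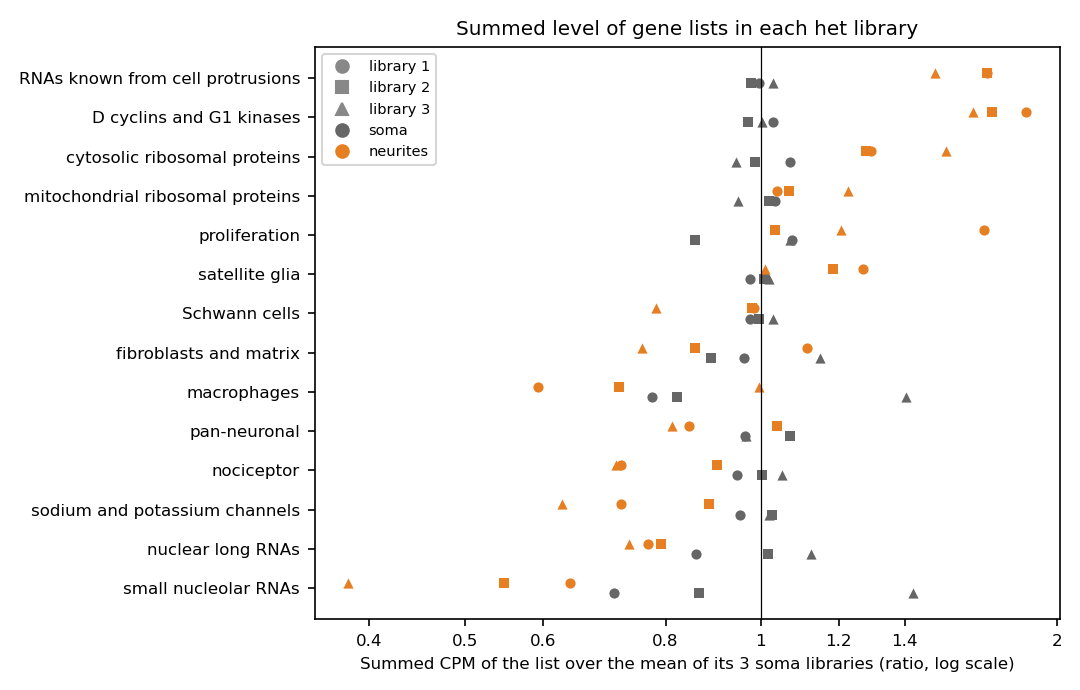
Summed CPM of 14 gene lists in each het library, divided by the mean of the list's 3 soma libraries (ratio, log scale), with soma in grey, neurites in orange and the library number as the marker's shape. The protrusion, D cyclin and cytosolic ribosomal protein lists lie above 1 in all 3 neurite libraries without touching the soma, while the glial and fibroblast lists overlap the soma. Sums follow highly counted members, such as Akap12 in the protrusion list and Ccnd1 in the D cyclin list.

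Single transcripts, the unit in which the counts were deposited, gave a similar picture. Of 29102 transcripts tested, 149 (0.512%) passed, 132 higher and 17 lower, from 143 genes. Of these genes, 48 had not passed as a sum. Dclk1-203, the most counted transcript of the microtubule-associated kinase Dclk1, rose (log2 0.58 ± 0.12 SE, adjusted p = 0.0336), while Dclk1-202 did not pass (-0.23 ± 0.18, adjusted p = 0.704) and the gene as a sum had an adjusted p of 0.0861. The share of Dclk1-202 among the gene's counts was 7.67%, 8.14% and 6.43% in soma and 4.04%, 4.99% and 4.34% in neurites.

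No transcript passed a test of its change against the other transcripts of its gene in edgeR, over 19042 transcripts of 5916 genes (0%), and 448 had an unadjusted p under 0.05. The smallest p was that of Syngr1-202, a short form of the vesicle protein synaptogyrin 1, with 1.16%, 0.955% and 0.870% of the gene's counts in soma and 2.24%, 1.67% and 2.20% in neurites (adjusted p = 0.291). Pkm-201, a transcript of pyruvate kinase, took 10.0%, 8.34% and 10.3% in soma and 20.8%, 11.6% and 14.6% in neurites (adjusted p = 0.753). For both, the 3 neurite libraries lay above the 3 soma libraries. Shares of transcripts depend on how the authors' counting divided reads between them.

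The het and WT changes were set side by side. In WT, 495 genes passed (3.1%), 385 higher (2.41%) and 110 lower (0.688%). The 86 genes that passed in both were 84.3% of the het calls and 17.4% of the WT calls, and all 102 het genes had the same sign in WT. Over all tested genes the het and WT log2 fold changes had a rank correlation (Spearman) of 0.58, so likeness was not particular to the 102. The median absolute log2 fold change of the 102 genes was 0.69 in het, where they were chosen, and 0.72 in WT. Ccnd1 changed by 1.67 ± 0.19 in WT against 1.32 ± 0.19 in het and Cdc42bpg by 1.98 ± 0.30 against 1.66 ± 0.30. Their differences were -0.35 ± 0.26 and -0.33 ± 0.41. Among the genes that fell, Chrna7 changed by -0.73 ± 0.15 in WT against -0.80 ± 0.15 in het, a difference of -0.06 ± 0.21.

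A test of the het change minus the WT change called 0 of 15990 genes (0%) in edgeR, with 202 at an unadjusted p under 0.05, and 0 in DESeq2, with 190. The test does not show that the changes are equal. The genes with the smallest p in the positive direction were Pbld2, F8 and Wdr63, and in the negative direction Rec114, Mtx1 and Tacc3. Pbld2 had 8.72, 8.27 and 6.83 CPM in het soma, 7.86, 9.86 and 8.95 CPM in het neurites, 8.15, 8.52 and 8.50 CPM in WT soma and 6.02, 6.19 and 5.14 CPM in WT neurites. Its WT groups were apart and its het groups overlapped, and the difference of 0.71 ± 0.21 did not pass (unadjusted p = 0.00463). Mtx1, an import factor of mitochondria, had a difference of -0.73 ± 0.23 (unadjusted p = 0.00659). The 202 unadjusted calls were fewer than a threshold of 0.05 would give by itself over 15990 genes without any difference. The smallest adjusted p of this test in edgeR was 0.9998. The test was thus cautious in this fit, and its 0 calls say little on how alike the genotypes are.

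**Figure D5:**
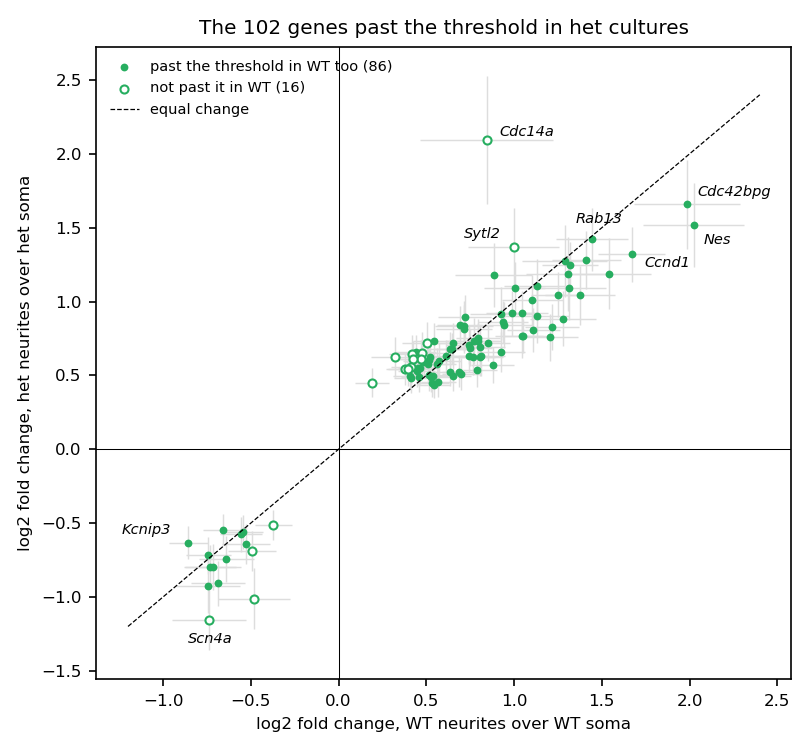
Log2 fold change of neurites over soma in het (upwards) and WT (across) for the 102 genes that passed in het, with standard errors as bars and a dashed line of equal change. All points lie in the quadrants of equal sign, 86 of them filled because they also passed in WT, and Cdc14a stands farthest above the line at a low level of counts.

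Length and composition were compared for each gene's most counted transcript, as a description. The transcripts of the genes that rose had a median of 2883 bases and those that fell 3304 bases, against 2669 bases over all tested genes. Their median GC content was 49.9%, 58.6% and 49.9%. By gene type, 67 of the 87 genes that rose were protein coding and 19 were pseudogenes, of 13610 and 993 tested, and all 15 that fell were protein coding.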

How the data were processed

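Transcript counts of 12 libraries were analysed, 6 of them het. The authors deposited 1 table per compartment, and per the file headers and values each library has a column of raw counts per Ensembl transcript. Every transcript of each table had at least 5 counts in at least 3 libraries, so low transcripts had been removed per compartment. Per the submitters' processing notes, CASAVA 1.8.2, edgeR and the mm10 (GRCm38) build were used, whereas the aligner and the counter were not given in the sources used here. A further 24 per-sample columns were not used.

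The 31420 named transcripts in both tables were summed to 16617 gene names. Names found in the soma table alone (1061) or the neurite table alone (255) were left out. They held at most 0.0287% and 0.00726% of a het library's counts. Identifiers matched GENCODE M21 for 99.0% of transcripts, and gene positions and 3′ UTR sequence come from it (GRCm38).

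After filterByExpr 15990 genes were left. With TMM scaling, edgeR 4.0.16 (in R 4.3.3) then fitted 1 mean per group over all 12 libraries by its robust quasi-likelihood method. P-values are 2-sided with Benjamini-Hochberg adjustment over all genes tested and a threshold of 0.05. The standard error (SE) is the log2 fold change divided by the square root of the F statistic. Transcripts were fitted the same way, and their change against the other transcripts of the gene was tested with diffSpliceDGE. DESeq2 1.42.0, other scalings and filters, the most counted transcript alone, a replicate block, fits of 1 genotype alone and leaving out each library were the alternatives. The procedure was tested on simulated data.

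Replicates differed by more than counting error, and the biological coefficient of variation was 0.163. An observed 0 allows a mean of up to 3 counts, 0.0905 to 0.159 CPM in het libraries, which covers counting error only.

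The comparison, the 39 gene lists and the rules were chosen with earlier results of these data known. Named genes are Ncl, Kpnb1, Mtor, up to 15 genes per direction with the highest folds among those past the threshold at 10 CPM or more, the members with the smallest p in each list (up to 4, or 2 where none passed), 3 genes per direction of the interaction and the 8 transcripts with the smallest p of the share test at 5 CPM or more. Further members of lists were named, after their values were seen, as known examples of their list. Predicted genes and pseudogenes were counted but not named. Some genes that the rule names are not reported here.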

Additional observations from a re-analysis of the deposited data

How the results depend on the processing

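The het count of 102 genes was 124 with relative log expression scaling, 90 with library totals, 99 without the low-count filter, 98 at 5 CPM or more, 109 with the most counted transcript alone and 91 in the het libraries alone. It was 488 in DESeq2 and ran from 0 to 191 with 1 library left out. The WT count of 495 was 1146 in DESeq2, 40 in the WT libraries alone and from 93 to 1081 with 1 library left out. The transcript count of 149 was 88 at 1 CPM or more and from 1 to 215 with 1 library left out. The interaction called 0 genes under every alternative run, and the share test 0 under all but the block. Of the calls, 85.3% were higher in neurites, 71.1% in DESeq2 and 46.6% without neurite library 2. Of single genes, Tacc3 turned from -0.34 to 0.17 with the most counted transcript alone and Wdr63 from 0.09 to -0.10 without neurite library 1 (up to 0.28 with another left out), neither past the threshold. Why these counts moved was not tested, other than that a left-out library leaves fewer samples.

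Neurite and soma samples share replicate numbers. Deviations from the group means correlated between equal numbers by 0.205, 0.256 and 0.0504 in het and 0.278, 0.341 and 0.230 in WT, so the third het pair did not reach 0.1 and the numbers were not taken as pairs, although each library correlated best with its own number. With a replicate block, 671 genes were called in het (407 higher and 264 lower, 60.7% higher, 100 of the 102 among them), 1489 in WT, 0 in the interaction, 719 transcripts and 1 transcript share (Syngr1-202). The genes not called with the block were Cdc42bpg (adjusted p = 0.0523) and Nes (0.0784), and Ncl was called (0.0298). The block called 2.55% of all genes higher and 1.65% lower. By list it called as lower 21 of 56 sodium and potassium channel genes, 11 of 37 ligand-gated receptors, 10 of 53 vesicle genes, 6 of 36 nociceptor, 6 of 21 large-diameter and 4 of 36 pan-neuronal genes and 4 of 20 macrophage genes. As higher it called 14 of 33 protrusion RNAs, 8 of 44 proliferation genes, 7 of 49 integrin and focal adhesion genes and 6 of 30 satellite glia genes. In the het libraries alone the block gave 167 genes, 119 higher and 48 lower. At these depths genes near 0.1 CPM are limited by counting.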

Other observations

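The largest fold changes at moderate levels did not pass. Among genes with a mean of at least 10 CPM over the 6 het libraries, 8 changed by 2-fold or more without passing, all 8 with a negative log2 fold change, and all 8 were highest in het soma library 3. They were found after the values were seen. Lars2, the mitochondrial leucyl-tRNA synthetase, stood at 30.3, 220 and 2465 CPM in het soma and at 53.5, 329 and 46.3 CPM in neurites (log2 -2.66 ± 1.56 SE, adjusted p = 0.503). Its log2 fold change was 1.65 in WT. The microRNA gene Mir6236 stood at 8.27, 84.0 and 469 CPM in soma and at 27.2, 102 and 8.21 CPM in neurites (adjusted p = 0.573). The non-coding RNA Yam1 stood at 354, 326 and 2163 CPM in soma and at 610, 385 and 323 CPM in neurites (adjusted p = 0.616). Together the 8 genes held between 0.0926% and 0.974% of a het library's counts. From which RNAs the reads counted at these genes came was not tested, so a change of their products is not shown. Scarna10, a small Cajal body RNA, ran from 52.7 to 193 CPM in soma and from 36.7 to 52.6 CPM in neurites.

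Several summed lists were also highest in soma library 3. The sum of small nucleolar RNAs was 327, 400 and 660 CPM in the 3 soma libraries, that of macrophage genes 400, 425 and 726 CPM, and that of nuclear long RNAs 20130, 23810 and 26320 CPM. Without this library the het comparison called 1 gene in edgeR, with 1622 at an unadjusted p under 0.05.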
